A study of Glycyrrhiza uralensis with 24 samples.

Results

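Aerial parts (stems and leaves) of Glycyrrhiza uralensis, a licorice legume, were compared between 6 h and 2 h in 150 mM NaCl by RNA-seq. The members are the 3 aerial libraries at 6 h and the 3 aerial libraries at 2 h, 6 of the 24 libraries of the series, chosen by their labels. The other libraries are aerial parts at 12 h of salt, aerial parts at 0 h, and roots at the same times. All plants were seedlings aged 60 days per the labels, kept in hydroponic culture, and both groups had NaCl in MS nutrient solution. The treatment protocol in the labels also calls this a simulated drought, and the groups were taken as labelled. No genotype or cultivar is given, and the labels do not say whether a library came from 1 plant, from several or from the same plant as another, so each p-value measures only the spread of the libraries, which may be technical. The 6 h and 2 h libraries carry the same title pattern and no control library enters the comparison. Untreated plants at 6 h and 2 h are not analysed here, so the hour of sampling and the length of the salt treatment cannot be told apart.

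As background, salt reaches a shoot first as an osmotic signal, which changes water status and abscisic acid (ABA) signalling, and later as sodium that accumulates in the leaves. Many plant genes answer such a shock briefly and return towards their earlier level. The series title names ABA and liquiritin, a flavonoid glycoside of licorice, and its design asks which genes and pathways regulate such compounds. The gene IDs of the files are not paired with gene names, so no ID is given a name or function here, and neither the pathways nor the markers of stems and leaves were checked.

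The values were TPM, which give the share of each transcript in a library, corrected for its length. The listed IDs summed to 464212, 459896 and 434718 TPM in the 6 h libraries, against 438392, 437992 and 431934 TPM in the 2 h libraries. These sums are 43.2% to 46.4% of the full TPM scale of a library, so most of that scale is not covered by the listed IDs. The difference of 16836 TPM was within the spread of the libraries (two-sided exact permutation p = 0.3, adjusted 0.9 over 4 library measures, where 3 against 3 libraries cannot go below 0.10). Neither the number of IDs above 0 (18491 ± 284 at 6 h and 18327 ± 362 at 2 h, SD, n = 3 each, exact permutation p = 0.6) nor that of IDs at 1 TPM or more (12698 ± 536 at 6 h and 12505 ± 711 at 2 h, SD, n = 3 each, exact permutation p = 0.8) differed beyond the spread. The 100 most abundant IDs held 31.7% ± 3.47 of the listed TPM at 6 h and 31.4% ± 5.13 at 2 h (exact permutation p = 0.9), and the adjusted p of these 3 measures was 0.9. TPM keep no record of read numbers, so the depth behind each value is unknown.

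One library stood apart. The distance between libraries was taken as the root mean square difference in log2(TPM + 1) over the 15548 IDs with a mean of at least 0.5 TPM in the aerial salt libraries. The 6 h replicates 1 and 3 were 0.872 apart, and 6 h replicate 2 was 1.28 and 1.27 away from them. The 2 h libraries were 0.922 to 1.08 apart. Between the groups, the pairs without 6 h replicate 2 lay at 0.938 to 1.17 and those with it at 1.34 to 1.35. In 6 h replicate 2, 1011 IDs lay at least 2-fold above the other 5 libraries and 603 at least 2-fold below them on the TPM + 1 scale, against 84 to 376 in either direction for each other library. The median SD of an ID was 0.46 on the log2(TPM + 1) scale over the 3 libraries at 6 h, 0.23 without replicate 2, and 0.40 over those at 2 h. The count of aerial calls and the median differences of the called IDs are given with and without it. The other descriptions of the called IDs include it.

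**Figure D1:**
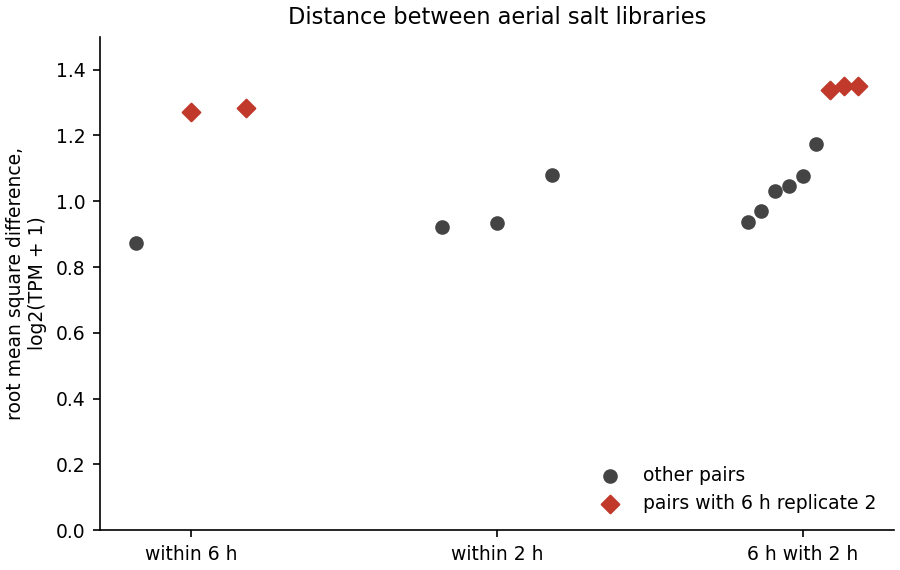
Root mean square difference in log2(TPM + 1) for every pair of the 6 aerial libraries, with pairs that include 6 h replicate 2 as red diamonds and other pairs as dark circles. All pairs with 6 h replicate 2 lie at 1.27 or above, and the other pairs between 0.872 and 1.17, with no gap between pairs within 2 h and pairs across the 2 times.

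Between 2 h and 6 h of salt, 183 gene IDs rose and 83 fell in aerial parts, out of 15548 tested. These 266 calls, 1.71% of the IDs tested (1.18% higher and 0.534% lower), had an adjusted p under 0.05 in limma with Benjamini-Hochberg adjustment. The fit was to log2(TPM + 1) over the 9 aerial salt libraries, of which the 12 h libraries enter only the filter on low values and the estimate of the spread. The median difference was 1.98 on the log2 scale among the IDs that rose and -1.71 among those that fell, and 0.02 over all IDs tested. In bulk tissue, a change in the share of a cell type and a change of RNA within its cells cannot be told apart. Adding a pseudocount of 1 makes the differences of IDs with low TPM smaller than the change in TPM itself.

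The count of calls depended on single libraries. The split moved too, with 200 higher and 150 lower IDs without 2 h replicate 1, and 90 higher and 22 lower without 2 h replicate 2. The count was 275 without 6 h replicate 2 (203 higher and 72 lower), of which 193 were among the 266 (72.6% of the 266 and 70.2% of the 275). Without 2 h replicate 2 it was 112, of which 107 were among the 266. It was 114 without 6 h replicate 1, with 103 among the 266, and 175 without 6 h replicate 3. When the fit held just the 6 libraries of both times it was 82, of which 76 were among the 266. When libraries were weighted by their quality, 677 IDs were called, which held all 266, and 6 h replicate 2 had the lowest weight, 0.243. The sign of a called ID could not change when 1 of the 6 libraries was left out, as the groups overlap in none of the 266. Of the 266, 87 (71 higher and 16 lower) were called in every fit that left out 1 of these libraries. Those 71 had a median difference of 2.83 and those 16 of -2.93.

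**Figure D2:**
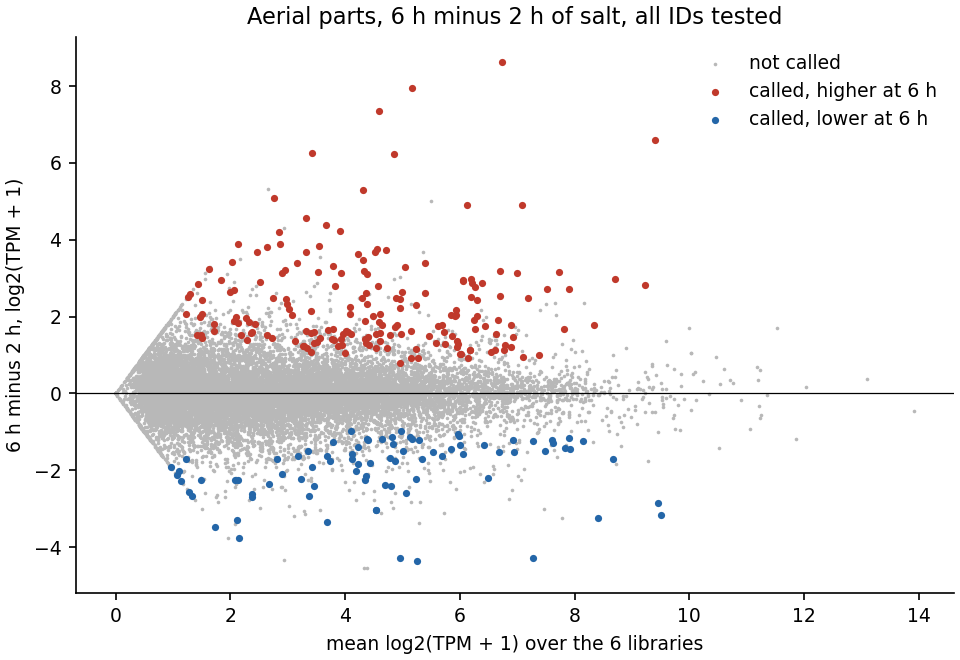
Difference of 6 h minus 2 h in log2(TPM + 1) against the mean log2(TPM + 1) over the 6 libraries, for each of the 15548 IDs tested. The 183 called IDs that were higher at 6 h are red, the 83 lower ones blue, and the largest rise, 8.62, lies farther from 0 than the largest called fall, -4.36.

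The largest rise was that of Glyur000380s00017141. It stood at 2892, 1871 and 1725 TPM in the 6 h libraries, against 5.11, 8.05 and 1.75 TPM in the 2 h libraries. The log2 difference was 8.62 (SE 0.42, limma adjusted p = 3.14e-05). The 12 h libraries had 8656, 11669 and 12073 TPM, the highest of the 3 salt times, and no library at one time overlapped with another time. In roots the same ID stood at 4.92, 11.4 and 5 TPM at 6 h, against 0.74, 6.42 and 0.93 TPM at 2 h, which overlap (log2 difference 1.38, SE 0.84, limma adjusted p = 0.666). The difference between the organs was 7.24 (SE 0.98, limma adjusted p = 0.00643).

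Glyur000027s00001583 rose next most. It had 511.9, 801.6 and 442.4 TPM in the 6 h libraries, against 0.99, 1.47 and 1.40 TPM in the 2 h libraries (log2 difference 7.96, SE 0.28, limma adjusted p = 9.8e-06). The 12 h libraries, at 478, 459 and 281 TPM, lay within or below the range at 6 h. Its highest value was in 6 h replicate 2, the library that stands apart, and the other 2 libraries at 6 h were also far above every 2 h library. In roots it had 208.6, 363 and 155.9 TPM at 6 h, against 7.50, 4.16 and 15.9 TPM at 2 h. The root groups did not overlap, and the root difference of 4.66 (SE 0.69) was not called (limma adjusted p = 0.0925).

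Glyur000072s00008124 fell the most among the called IDs. It had 7.74, 8.23 and 6.30 TPM in the 6 h libraries, against 161.9, 235.2 and 132.8 TPM in the 2 h libraries (log2 difference -4.36, SE 0.34, limma adjusted p = 0.000564). The 3 libraries at 6 h were close to each other, and at 12 h the ID stood at 9.94, 3.73 and 7.94 TPM. It was also called in roots, where it had 4, 3.41 and 4.43 TPM at 6 h, against 52.4, 123 and 42.3 TPM at 2 h (log2 difference -3.74, SE 0.38, limma adjusted p = 0.0174). This root call was lost in 5 of 17 alternatives: with just the 6 root libraries of both times (limma adjusted p = 0.141), with a block by the number in the file names (limma adjusted p = 0.172), and without root 2 h replicate 3, root 6 h replicate 1 or root 6 h replicate 2 (limma adjusted p = 0.0685, 0.069 and 0.0522). Over the 17 the limma adjusted p ranged from 0.00211 to 0.172. The difference between the organs, -0.62 (SE 0.52), was not called (limma adjusted p = 0.943).

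Glyur000049s00003133 fell to 17.5, 52.9 and 42.0 TPM at 6 h, against 301.6, 1404 and 737 TPM at 2 h (log2 difference -4.28, SE 0.63, limma adjusted p = 0.0136). Its 2 h libraries spread widely, and at 12 h it was lower again, at 3.63 to 10.45 TPM. When the fit held just the 6 libraries of both times this call was lost (limma adjusted p = 0.0511, range over all alternatives 0.00123 to 0.0511), while the other 3 IDs stayed called in aerial parts under each of their 18 alternatives. In roots it had 13.9, 9.37 and 44.8 TPM at 6 h, against 43.2, 16.7 and 127.3 TPM at 2 h, and these ranges overlap.

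**Figure D3:**
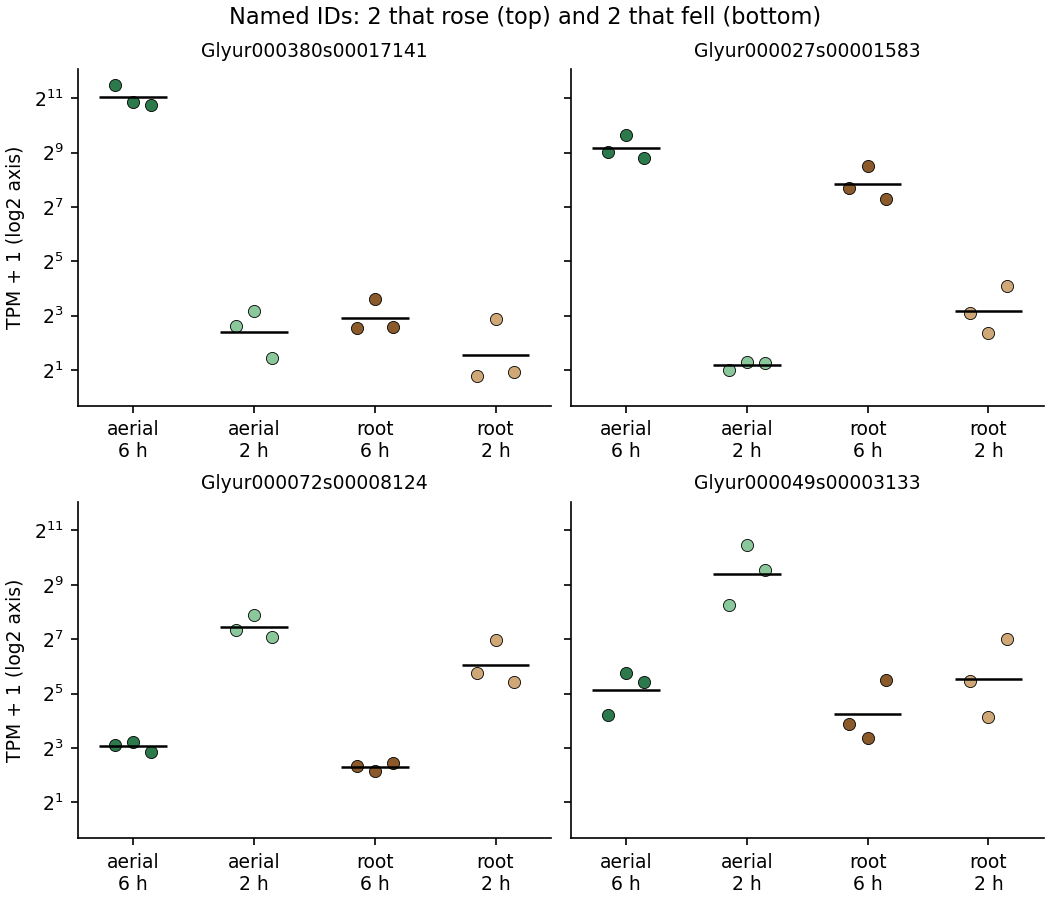
TPM + 1 on a log2 axis in each library (points) with the mean of the log2 values (line), for the named IDs that rose (top) and fell (bottom), in aerial parts at 6 h and 2 h and in roots at 6 h and 2 h. In aerial parts the 3 libraries at 6 h are clear of the 3 at 2 h in each panel, and in roots Glyur000027s00001583 and Glyur000072s00008124 show the same order of times with no overlap.

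Most called IDs differed by at least 2-fold. With 3 libraries per group, a call needs a difference well beyond their spread, so these sizes describe the IDs chosen. Of the 183 IDs that rose, 177 differed by at least 2-fold on the TPM + 1 scale, 90 by at least 4-fold, 40 by at least 8-fold and 14 by at least 16-fold. Of the 83 that fell, the numbers were 81, 35, 11 and 3. Over all IDs tested, 1182 had a log2 difference of 1 or more and 986 of -1 or less, 13.9% of the IDs tested, and most of these were not called. In each of the 266 called IDs the 3 libraries of one time lay apart from the 3 of the other, as they did in 16% of all IDs tested (9.23% with 6 h above and 6.79% with 6 h below). Between the nearest libraries of the groups the gap was at least 1 on the log2(TPM + 1) scale in 126 of the 183 IDs and in 49 of the 83. The gap was not taken over all IDs tested. As the IDs were called on these same libraries, it describes the IDs chosen and is no further result.

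Called IDs were more abundant than the IDs tested as a whole. The higher of the group means at 6 h and 2 h was over 100 TPM in 27.9% of the IDs that rose and 26.5% of those that fell, against 5.85% of all IDs tested. It was under 10 TPM in 14.2% and 12.0% of them, against 57.7% of all. The pseudocount makes differences of IDs with low TPM smaller, and a large difference can itself raise the higher mean. Both favour abundant IDs among the calls, so these shares describe the IDs chosen. Of the IDs that rose, 4 were listed at 0 in all 3 libraries at 2 h, with 2.55 to 13.7 TPM at 6 h. Among those that fell, 6 were listed at 0 in all 3 libraries at 6 h, with 2.39 to 14.98 TPM at 2 h. No fold change is given for these, and without them the median differences were 1.92 and -1.70.

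Together the IDs that rose took up a larger part of the listed transcripts at 6 h. The 183 IDs summed to 30163, 27331 and 28457 TPM in the 6 h libraries, against 4759, 3153 and 4133 TPM in the 2 h libraries. That is 5.94% to 6.55% of the listed TPM at 6 h, against 0.72% to 1.09% at 2 h. The 5 most abundant of them at 6 h made up 13527, 9900.5 and 14294 TPM there, against 672, 360 and 479 TPM at 2 h. The other IDs that rose still summed to 14163 to 17430 TPM at 6 h, against 2793 to 4087 TPM at 2 h. The 83 IDs that fell summed to 2881, 2842 and 3365 TPM in the 6 h libraries, against 11454, 17406 and 11520 TPM in the 2 h libraries. As the IDs were called on these libraries, the sums describe the size of the change and are not a test of it.

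Among the called IDs, 6 h replicate 2 lay beyond the other 6 h libraries in some and nearer to the 2 h level in others. A call needs libraries that lie close together, so this describes the IDs chosen and is no test of the library. The median TPM of the 183 IDs was 43.2, 50.6 and 42.7 in 6 h replicates 1, 2 and 3, against 9.44, 7.58 and 10.2 in the 2 h replicates. In 80 of the 183 IDs the 6 h library farthest from the 2 h level was replicate 2, in 70 it was replicate 1 and in 33 replicate 3. The 6 h library nearest to the 2 h level was replicate 2 in 52, replicate 1 in 43 and replicate 3 in 88. Of the 83 IDs that fell, the farthest was replicate 2 in 31, replicate 1 in 27 and replicate 3 in 15. The nearest was replicate 2 in 26, replicate 1 in 15 and replicate 3 in 36. Without 6 h replicate 2 the median difference of the same IDs was 1.85 for those that rose and -1.73 for those that fell. At 2 h, replicate 2 was the library nearest to the 6 h level in 17 of the 183 IDs, against 83 for replicate 1 and 79 for replicate 3. Among those that fell these numbers were 15, 39 and 29 of 83.

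At 12 h the levels of single IDs lay on both sides of their 6 h levels. Of the 183 IDs that rose, the mean at 12 h was beyond that at 6 h in 89, between the 2 h and 6 h means but nearer to 6 h in 75, nearer to 2 h in 15, and beyond the 2 h mean in 4. Of the 83 that fell, these numbers were 46, 30, 5 and 2. The median of the group means, on the log2(TPM + 1) scale, was 3.25 at 2 h, 5.54 at 6 h and 5.49 at 12 h for the IDs that rose. For those that fell it was 5.47 at 2 h, 3.60 at 6 h and 3.35 at 12 h. The 183 IDs summed to 32143, 39391 and 35789 TPM in the 12 h libraries, and the 83 IDs to 2905, 2421 and 2690 TPM. The IDs were chosen on the 2 h and 6 h libraries, which any comparison with 12 h would share. The 12 h libraries also entered the filter and the estimate of the spread. The levels are therefore given side by side with no test, and the positions at 12 h were not counted over all IDs tested.

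**Figure D4:**
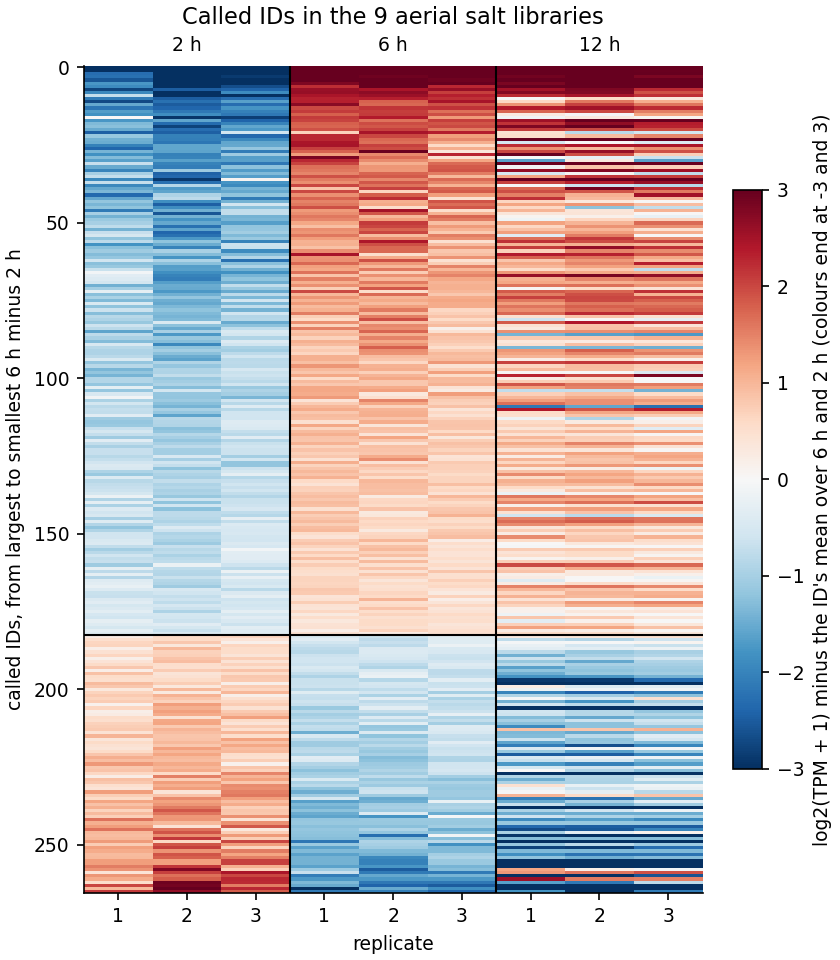
Each of the 266 called IDs (rows, from the largest rise at the top to the largest fall at the bottom, with a line between the 183 that rose and the 83 that fell) in the 9 aerial salt libraries (columns, 2 h, 6 h and 12 h), as log2(TPM + 1) minus the ID's mean over the 6 h and 2 h libraries. Red is above and blue below that mean. The upper block is blue at 2 h and red at 6 h and mostly red at 12 h, with single IDs that return to blue.

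Roots gave the same contrast in libraries of another organ. There, 8 IDs were higher and 1 lower at 6 h than at 2 h, 0.0561% of 16037 tested (0.0499% higher, 0.00624% lower, limma adjusted p under 0.05 over the 9 root salt libraries). Of these 9, 8 were also called in aerial parts in the same direction, 88.9% of the root calls and 3.01% of the aerial ones. The root count was 0 by limma when the fit held just the 6 root libraries of both times (1070 IDs at an unadjusted p under 0.05) and 26 with the root controls in the fit. Left out in turn, root 2 h replicates 1, 2 and 3 gave 14, 2 and 1 calls, and root 6 h replicates 1, 2 and 3 gave 2, 10 and 64.

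IDs called in aerial parts mostly had a root difference of the same sign. Of the 183 that rose, 168 were tested in roots. In 144 of the 168 (85.7%) the root difference was also above 0, as in 52.0% of the 13938 IDs tested in both organs. In 72 of them (42.9%) it was at least 1 on the log2(TPM + 1) scale, against 7.44% of all, and 7 were called in roots. The median root difference was 0.75, against 0.03 over all IDs tested in both organs, where the same 168 had a median of 1.87 in aerial parts. Of the 83 that fell, 69 were tested in roots. The root difference was below 0 in 55 (79.7%, against 47.8% of all) and -1 or less in 23 (33.3%, against 5.29%), with a median of -0.62. Without root 6 h replicate 2 the medians were 0.79 and -0.59. The IDs were chosen for a large difference in aerial parts, so the larger medians in aerial parts are no finding. Aerial and root libraries also share numbers in their titles, and libraries with the same number deviated from their group means together, with a correlation of 0.20 to 0.57 over IDs, so the organs are not independent samples.

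**Figure D5:**
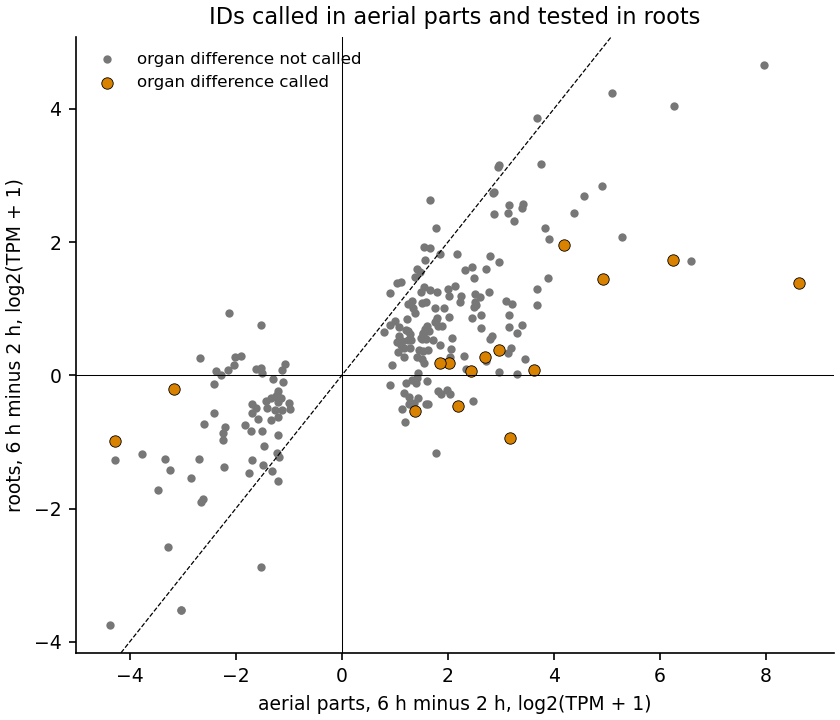
Difference of 6 h minus 2 h in roots against that in aerial parts, both in log2(TPM + 1), for the 237 IDs called in aerial parts and tested in roots. The dashed line marks equal differences, and orange points are the 15 IDs plotted whose difference between the organs was itself called. Most points lie on the same side of 0 in both organs and nearer to 0 in roots.

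The difference between the organs was tested directly, as the 6 h minus 2 h change in aerial parts minus that in roots, over the 18 salt libraries. It was called for 21 of 16522 IDs (0.127%), of which 18 were positive (0.109%) and 3 negative (0.0182%), by limma adjusted p under 0.05. All 21 were among the 266 called in aerial parts (7.89% of them), and none was among the 9 called in roots. Only 15 of the 21 (13 positive and 2 negative) passed the filter on low values in roots. The other 6 passed through the aerial libraries alone and had at most 1.29 TPM in any root salt library. For these 6 the value restates the aerial difference and does not compare 2 responses. The 2 negative ones tested in roots had at most 4.17 TPM in any root library at 2 h. From there a root fall as large as their aerial one could not be seen on the log2(TPM + 1) scale. The 18 had a median aerial difference of 3.40, and the 13 of them tested in roots a median root difference of 0.19, from -0.94 to 1.95. This fit took the 18 libraries as independent, though aerial and root libraries with the same title number deviated together. With the shared title number as a block, 120 IDs were called, 79 positive and 41 negative. Of the 120, 69 were among the 266 and 24 did not pass the filter in roots. Without the aerial and root libraries with title number 5, which are the 6 h replicate 2 of both organs, 28 were called. Leaving out aerial 2 h replicate 1 gave 51 calls, aerial 2 h replicate 2 gave 13, and root 2 h replicates 1 and 2 gave 12 and 8.

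Glyur006602s00046711 changed in aerial parts and was near 0 in roots. It had 403, 199.5 and 355 TPM in the aerial 6 h libraries, against 3.97, 0 and 0.35 TPM at 2 h (log2 difference 7.35, SE 0.55, limma adjusted p = 0.000531). In roots no library at either time was above 0.41 TPM, and the ID was not tested there. The value for the difference between the organs, 7.28, therefore repeats the aerial one and is no test of a difference in response.

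Glyur000194s00016321 had differences of opposite sign in the organs. It had 58.5, 48.2 and 73.3 TPM in the aerial 6 h libraries, against 4.08, 8.33 and 5.22 TPM at 2 h (log2 difference 3.18, SE 0.25, limma adjusted p = 0.000637). In roots it had 7.35, 8.51 and 7.45 TPM at 6 h, against 16.3, 21.3 and 11.3 TPM at 2 h, a difference of -0.94 that was not called (limma adjusted p = 0.381). The root libraries of the 2 times did not overlap. The difference between the organs was 4.12 (SE 0.36, limma adjusted p = 9.59e-05) and was called under each of its 22 alternatives.

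Of the 3 negative differences, Glyur000166s00010574 had the lowest p. It had 236, 215 and 274 TPM in the aerial 6 h libraries, against 2109, 3194 and 1518 TPM at 2 h (log2 difference -3.17, SE 0.31, limma adjusted p = 0.0021), and was lower again at 12 h, at 15.7, 23.4 and 30.03 TPM. In roots it stood at 2.27 to 3.02 TPM at 6 h, against 2.63 to 4.17 TPM at 2 h, and these ranges overlap. From such root levels at 2 h, a fall as large as the aerial one could not be seen on the log2(TPM + 1) scale. The difference between the organs was -2.96 (SE 0.38, limma adjusted p = 0.00369). Glyur000006s00001625 had 1.66, 1.67 and 2.09 TPM in the aerial 6 h libraries, against 14.0, 7.58 and 22.0 TPM at 2 h, and was listed at 0 in all but 1 of the root libraries at these times. It was not tested in roots either, and its value for the difference between the organs, -2.38, repeats the aerial difference of -2.36. That call was also lost in 12 of 22 alternatives.

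Some IDs have several rows, which were summed. Of the 266 called IDs, 31 had more than 1 row. Tested row by row, 271 of 16263 rows were called, from 266 IDs of which 262 were called when summed, and no ID had rows called in opposite directions. One pair of called IDs had the same value as each other in all 24 libraries, so the 266 IDs hold 265 distinct profiles, and reads of that pair cannot be told apart.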

How the data were processed

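Transcript abundance was measured by RNA-seq in 3 libraries per group. The files hold TPM per ID, the unit the authors deposited per the file headers. Tools listed in the submitters' processing notes are fastp, HISAT2, StringTie, RSEM, DESeq2 and edgeR, with no version or role. The genome is not given in the sources used here. Each file has 38135 rows for 34445 IDs, and rows of 1 ID were summed. Tests were planned for either counts or TPM. The TPM plan applied: limma 3.58.1 (R 4.3.3) on log2(TPM + 1), with a trend of variance on level, for IDs whose mean in the fitted libraries reached 0.5 TPM. Calls are two-sided, at an adjusted p (Benjamini-Hochberg) under 0.05. Library measures were compared by exact permutation (scipy 1.17.1). The pipeline was run on simulated data with independent noise for each ID and library. These data held no library that stood apart and no pairing of organs, so they do not test the effect of either. The IDs named are the 2 largest rises and the 2 largest falls among calls whose groups do not overlap and reach a mean of 10 TPM in 1 group. For the organ difference they are, per sign, the 2 calls of lowest p that reach this mean. No table pairs the IDs with gene names, so no pathway list was tested. The comparison, rules and alternatives were chosen with earlier results of these data known. Alternatives changed the pseudocount, filter, scaling, trend, weights, block and libraries of the fit. Title numbers pair aerial and root libraries: residuals of all 9 pairs correlated at 0.20 to 0.57, and each library correlated best with its own number, though the labels do not say what the number marks.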

Additional observations from a re-analysis of the deposited data

Results flagged for a closer look

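The 6 h minus 2 h change in aerial parts minus that in roots was called for 21 IDs (limma adjusted p under 0.05). This fit took the libraries as independent, though aerial and root libraries with the same title number deviated together. With the title number as a block, 120 IDs were called. Of the 21, 15 passed the filter on low values in roots. The other 6 (5 positive and 1 negative) had at most 1.29 TPM in any root salt library. They were not tested in roots, so the value restates the aerial one. From such levels a root fall as large as the aerial one could not be seen, while a large root rise could have been. The 2 negative ones among the 15 had at most 4.17 TPM in any root library at 2 h. From there a root fall as large as their aerial one could not be seen on the log2(TPM + 1) scale. Among the IDs named, the difference of aerial parts minus roots on the log2(TPM + 1) scale was 4.12 for Glyur000194s00016321, 7.28 for Glyur006602s00046711, -2.96 for Glyur000166s00010574 and -2.38 for Glyur000006s00001625, of which 7.28 and -2.38 belong to IDs not tested in roots. Groups of 3 libraries are too small for a check of single outlying values.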

How the results depend on the processing

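The 266 aerial calls became 82 when the fit held just the 6 libraries of both times, 172 without a filter on low values, 677 with library quality weights and 98 with a replicate block by the number in the file names. That number is no pairing in the labels: residuals of same-numbered 6 h and 2 h libraries correlated at 0.02 to 0.10, and not every library correlated best with its own number. Left out in turn, single libraries gave 112 to 350 calls, and the other alternatives 185 to 345. Scaling by median of ratios or to the listed total gave 253 and 256. The share of higher IDs was 68.8% as reported, 64.0% and 66.0% under these scalings, and 57.1% to 80.4% over single libraries left out. The median of all IDs was 0.02 as reported and -0.02 under both scalings. The 9 root calls became 0 when the fit held just 6 libraries (limma, 1070 IDs at an unadjusted p under 0.05), 26 with controls in the fit, 4 without a filter and 0 with the file-number block (limma, 1242 IDs at an unadjusted p under 0.05), and single libraries gave 1 to 64. The 21 organ differences became 11 and 52 with a pseudocount of 0.1 and 5, 129 with quality weights and 120 with the replicate block by title number, and single libraries gave 8 to 51. The cause of these moves was not tested. Over single libraries left out, the 6 h minus 2 h difference was -5.33 to 355 IDs above 0, -186 to 519 IDs at 1 TPM or more, and -1.93 to 3.11 percentage points in the top 100 IDs. It was -0.0584 for the top 1000 IDs. The file-number block also ended the root call of Glyur000072s00008124 (limma adjusted p = 0.172), and the aerial calls of the 4 named IDs held under it. Depth is unknown, so no limit for low IDs can be given.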

Other observations

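The 0 h libraries enter no comparison above and carry another title pattern, and their medium was distilled water per the labels. Their levels are given as values only. The listed IDs held 47.6% to 49.7% of the full TPM scale in the aerial 0 h libraries, against 43.2% to 46.4% in those at 2 h and 6 h. On the log2(TPM + 1) scale, the median of the group means of the 183 IDs that rose was 5.44 at 0 h, 3.25 at 2 h and 5.54 at 6 h, and that of the 83 IDs that fell was 3.28 at 0 h, 5.47 at 2 h and 3.60 at 6 h. The salt libraries chose these IDs, and the 0 h libraries did not. Any comparison of 0 h with 2 h or 6 h would share libraries that chose the IDs, so no test is given. At 0 h, Glyur000380s00017141 had 1210.4, 2902 and 1609 TPM, and Glyur000027s00001583 had 520.4, 826.1 and 394.4 TPM. Of the named IDs that fell, Glyur000072s00008124 had 6.19, 5.88 and 9.73 TPM at 0 h, and Glyur000049s00003133 had 3.11, 9.21 and 5.33 TPM.

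Among all IDs above 0 in any library, 1391 of 28803 had the same value as another ID in all 24 libraries. Of the called IDs, 2 were among them.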
